A study of Homo sapiens with 6 samples.

Results

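The subunits of the 5 complexes of oxidative phosphorylation (OXPHOS) were examined in DU145 cells, a human prostate cancer line. Members were chosen by gene symbol, as nuclear genes of the NDUF, SDH, UQCR, COX and ATP5 families together with CYC1, and as the protein-coding genes of the mitochondrial genome (MT genes). They numbered 102 of the 23062 identifiers, with 89 nuclear and 13 MT genes. The symbols carry no measured value, but the family was selected on account of ATP5F1A, whose TAX-minus-control difference in these same libraries was already known. The differences between groups given for the members are therefore descriptions.

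Taraxasterol (TAX) is a plant triterpene. DU145 cells of wild-type genotype were kept for 48 h in MEM medium (control cells, 3 libraries) or in medium with 56 µM TAX (3 libraries), the IC50 of the compound in this line. All cells grew in MEM with serum and antibiotics, and TAX was dissolved in DMSO. Whether control cells received DMSO is not stated, so the solvent and TAX cannot be told apart. The study states only in general that experiments were repeated and does not say whether these libraries came from separate cultures, so the p-values may measure only the spread between these libraries. Cell number and RNA per cell cannot be told apart in bulk RNA either.

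The inner mitochondrial membrane carries the respiratory chain, in which complexes I and II take electrons from NADH and succinate, complex III passes them to cytochrome c, and complex IV passes them to oxygen. Complexes I, III and IV pump protons, and complex V (ATP synthase) lets them back through a rotating ring to make ATP. Complex II is wholly encoded in the nucleus, whereas the other complexes join nuclear subunits with MT subunits that are transcribed as long polycistronic RNAs inside the organelle.

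Levels are FPKM, which is per length, so that levels of different genes can be set side by side. The FPKM values summed to between 322483 and 363724 per library and depth is unknown. Genes that reached 1 FPKM in 3 or more libraries were tested, which left 12359. Group differences were fitted with limma on log2(FPKM + 1), and a fold change on this scale understates the change of low genes. Of the tested genes, 39 were higher and 20 lower in TAX at an adjusted p under 0.05. The epithelial markers KRT8, KRT18, KRT19, EPCAM and CDH1 all had a mean of at least 1 FPKM and summed to 428 to 545 FPKM in control and 555 to 606 FPKM in TAX libraries. Fibroblast markers, of which COL1A1 alone of 5 had a mean of at least 1 FPKM, summed to 1.91 to 2.09 FPKM in control and 1.44 to 1.51 FPKM in TAX libraries, with COL1A2, DCN and LUM listed at 0. Leukocyte markers summed to at most 0.589 FPKM with CD3E listed at 0, and endothelial markers to at most 0.0368 FPKM. The epithelial and fibroblast sums did not overlap between groups, and their part in the results was not tested. Among the epithelial markers, KRT18, KRT19 and EPCAM lay higher in every TAX library, while KRT8 and CDH1 overlapped. CDH1 alone of them had a negative log2 fold change, -0.16 with SE 0.15.

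Of the members, 94 passed the filter, 81 nuclear and all 13 MT genes. The 8 that did not were COX4I2, COX6A2, COX6B2, COX7A1, COX7B2, COX8C and NDUFA4L2 of complex IV and ATP5MGL of complex V, several of which are known as tissue-restricted or testis forms. UQCRHL, a copy of the complex III subunit gene UQCRH, lay just inside the filter at 1.08 ± 0.234 FPKM in control and 1.31 ± 0.190 FPKM in TAX cells (SD, n = 3). Since reads of UQCRHL and UQCRH can be exchanged, its value is uncertain. NDUFA4L2 lay just outside, at 0.803 ± 0.0632 FPKM in control and 0.840 ± 0.0409 FPKM in TAX cells.

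Promoter sequence is shown first for the nuclear members, because several of the factors known to drive these genes bind short motifs there. RefSeq promoters (GRCh38.p14, 250 bases before to 50 after a gene start) were matched to 72 of the 89 nuclear members, 4 of them through a synonym. The motifs were searched on both strands in 87 member windows and in all 34943 windows. The NRF1 core GCGCATGC was held by 17.24% of member windows and 3.02% of all windows. The ETS core CCGGAAG, which GABP recognises, was held by 25.29% against 10.21%. The YY1 core AAGATGGC was held by 14.94% against 2.89%, and the SP1 core GGGCGG by 60.92% against 44.87%. The NRF1 core and its reverse complement can overlap each other and a window was counted once. A match describes these letters and not a bound site. The set of all windows was not matched to the members by expression or base content, so the shares are descriptions. The stretches below show the NRF1 core of the most abundant member with that core in complexes I, II, IV and V, and the ETS core near the inner of the starts listed for ATP5F1A. Capitals mark the core, written 5′ to 3′ on the strand of the gene, and in COX6A1 the NRF1 core and in ATP5F1A the ETS core appear as their reverse complements.
NDUFS6: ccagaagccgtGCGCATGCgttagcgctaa
SDHD: cagctgtgtttGCGCATGCgcgacgggtgt
COX6A1: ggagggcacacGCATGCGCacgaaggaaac
ATP5F1C: ggggagcttcgGCGCATGCgcgctgaggcc
ATP5F1A: gaggggcagtaCTTCCGGgtcaggtgggcc
These lie at chr5:1801350-1801379 (plus strand), chr11:112086752-112086781 (plus), chr12:120437884-120437913 (plus), chr10:7788144-7788173 (plus) and chr18:46098326-46098355 (minus). ATP5F1A held no NRF1 core in either of its windows, while the 250 bases before its outer start held 3 SP1 cores, beginning 96, 117 and 226 bases before that start. The 14 members with an NRF1 core had a median log2 fold change of -0.025 and the 21 with an ETS core one of -0.014. The 12 with a YY1 core had 0.055 and the 44 tested with an SP1 core -0.013. The median over all tested genes was 0.054, and that over the tested nuclear members was 0.030, or 0.067 without control 3. How the motif medians move when a library is left out was not tested.

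Among the nuclear members, 1 gene stood apart from the rest. ATP5F1A, which encodes the alpha subunit of the F1 head of ATP synthase, lies at chr18:46080248-46104334 on the minus strand (GRCh38, GENCODE 29). It measured 54.0, 61.5 and 106 FPKM in control libraries 1 to 3 and 157, 178 and 162 FPKM in the TAX libraries. Every TAX library lay above every control library, and control 3 lay between the other controls and the TAX libraries. The means were 73.8 ± 28.0 FPKM in control and 166 ± 10.9 FPKM in TAX cells (SD, n = 3), a ratio of 2.25 and a log2 fold change of 1.22 with SE 0.20. Without control 3 the log2 fold change was 1.51. ATP5F1A was the 1 member past the adjusted threshold, which 0.316% of all tested genes passed in that direction, and it stayed past it in 3 of 8 other settings and in 2 of the 6 fits with a library left out. Its neighbour HAUS1, on the opposite strand at chr18:46104332-46128333, shares 3 bases with it and measured 20.3, 19.4 and 20.5 FPKM in control and 20.2, 22.7 and 16.8 FPKM in TAX libraries.

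The alpha subunit works in a hexamer with an equal number of beta subunits, which ATP5F1B encodes. ATP5F1B was the most abundant nuclear member, at 447, 438 and 379 FPKM in control and 451, 493 and 465 FPKM in TAX libraries. Its lowest TAX library lay just above its highest control library, and the log2 fold change was 0.16 with SE 0.098 (limma adjusted p = 0.605), and 0.085 without control 3. The ratio of ATP5F1A to ATP5F1B in FPKM was 0.121, 0.140 and 0.279 in control and 0.348, 0.362 and 0.349 in TAX libraries. The TAX libraries thus lay close together and above all controls, with means of 0.180 ± 0.0863 and 0.353 ± 0.00748 (SD, n = 3). Relative to ATP5F1C, which encodes the gamma subunit of the rotating stalk, ATP5F1A measured 0.457, 0.521 and 0.894 in control and 1.30, 1.35 and 1.36 in TAX libraries.

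The other genes of the F1 head and stalk differed far less. ATP5F1C measured 118.1, 118.0 and 118.4 FPKM in control and 120.4, 131.8 and 119.5 FPKM in TAX libraries, so that the groups did not overlap although the difference was small (log2 fold change 0.066, SE 0.081). ATP5F1D, the delta subunit at the foot of the stalk, measured 29.6, 28.4 and 24.1 FPKM in control and 31.6, 34.3 and 31.3 FPKM in TAX libraries. All its TAX libraries lay above the controls, and the log2 fold change was 0.24 with SE 0.093 (limma unadjusted p = 0.0273, adjusted p = 0.432), and 0.15 without control 3. ATP5F1E, the small epsilon subunit beside it, overlapped between groups, with 12.6, 18.0 and 24.7 FPKM in control and 17.3, 18.7 and 17.0 FPKM in TAX libraries.

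The remaining ATP synthase genes are given by their place in the enzyme, which was assigned after the values were seen. Of all 12359 tested genes, 10147 overlapped between groups. All TAX libraries lay above all controls in 14.6% and below them in 3.34%. Of the 3 genes of the c ring, the rotor in the membrane, ATP5MC1 and ATP5MC3 did not overlap and ATP5MC2 did, with log2 fold changes from -0.052 to 0.16. The lowest, that of ATP5MC2, was -0.12 without control 3 and 0.025 without control 1. Of the 4 genes of the peripheral stalk, which holds the head still, ATP5PB did not overlap, at 40.5 ± 0.554 FPKM in control and 44.0 ± 3.08 FPKM in TAX cells. All 5 genes of the other membrane subunits overlapped and had a negative log2 fold change, with a median of -0.068. Without control 3, ATP5MD (0.21) and ATP5MPL (0.12) were positive, and ATP5MF (-0.15) and ATP5MG (-0.091) were negative. The median of the 5 then fell on ATP5ME. That gene measured 26.0, 24.6 and 51.7 FPKM in control and 24.9, 26.4 and 24.0 FPKM in TAX libraries. Its negative log2 fold change of -0.35 (SE 0.22) rested on control 3, and without that library it was -0.014. ATP5IF1, the inhibitor of ATP hydrolysis, measured 54.3 ± 6.69 FPKM in control and 46.2 ± 3.66 FPKM in TAX cells, with overlapping groups. The median of the 18 tested nuclear genes of complex V was -0.019, and -0.026 without ATP5F1A. It turned positive without control 3 (0.076), control 1 (0.0036), TAX 1 (0.00013) or TAX 3 (0.0053). It was lower without TAX 2 (-0.055), with quantile normalization (-0.089), with libraries centred on their median (-0.077) and with scaling to genes outside MT (-0.081).

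**Figure D1:**
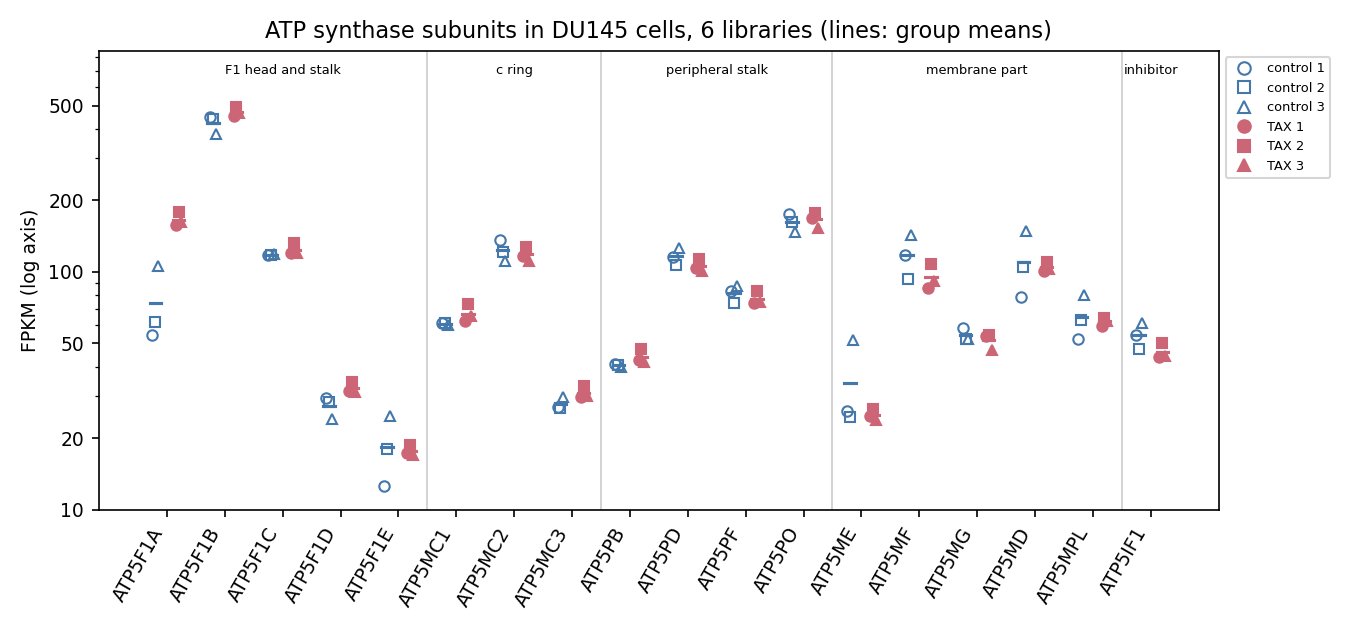
FPKM of the 18 tested nuclear ATP synthase genes on a log axis, grouped by their place in the enzyme, with 1 point per library (open blue for control, filled red for TAX) and short lines at the group means. ATP5F1A moves from 73.8 to 166 FPKM between group means, while control 3 (open triangle) lies above the other controls for ATP5F1A, ATP5ME, ATP5MD and several more.

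Complex I, the entry point for NADH, had 37 tested nuclear members. Of these, 20 had a positive and 17 a negative log2 fold change, where 8537 of all 12359 tested genes were positive. The median was 0.020. That median was 0.0029 without control 1, 0.0089 without control 2, 0.055 without control 3 and 0.053 without TAX 3. The largest log2 fold change was that of NDUFA10, an accessory subunit, at 19.0, 15.4 and 17.9 FPKM in control and 20.4, 25.3 and 23.7 FPKM in TAX libraries. All its TAX libraries lay above the controls, and the log2 fold change of 0.39 with SE 0.10 did not pass the adjusted threshold (limma adjusted p = 0.212). NDUFA9, which helps to join the matrix and membrane arms, measured 5.61, 5.93 and 5.20 FPKM in control and 6.27, 7.03 and 6.66 FPKM in TAX libraries, again without overlap (limma unadjusted p = 0.0231, adjusted p = 0.413).

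The 7 nuclear core subunits, which carry the flavin and the iron-sulfur clusters, had 6 positive log2 fold changes and a median of 0.11. They were assigned after the values were seen, and 8537 of all 12359 tested genes were positive. NDUFV1, which binds NADH, measured 62.9, 63.9 and 53.3 FPKM in control and 67.3, 69.5 and 67.3 FPKM in TAX libraries and was the 1 core gene without overlap. Its log2 fold change was 0.18, and 0.10 without control 3. NDUFS1 measured 12.8, 11.3 and 10.7 FPKM in control and 16.0, 12.5 and 13.3 FPKM in TAX libraries, and NDUFS7 had 15.4, 14.8 and 16.6 FPKM against 18.6, 21.2 and 16.2 FPKM. In both of these core genes 1 TAX library fell within the range of the controls, with limma adjusted p of 0.480 and 0.471. NDUFV2, the most abundant nuclear complex I gene, had 124.3, 116.0 and 128.3 FPKM in control and 112.6, 131.2 and 117.9 FPKM in TAX libraries, with wide overlap. Among accessory subunits, NDUFA3 measured 12.2 ± 0.953 FPKM in control and 10.3 ± 1.04 FPKM in TAX cells, a log2 fold change of -0.23 with SE 0.093 (limma unadjusted p = 0.0325, adjusted p = 0.445), and 1 TAX library lay within the controls. NDUFB1 had the lowest value of the nuclear genes of the complex, -0.30 with SE 0.22, from 33.8, 34.1 and 68.0 FPKM in control and 34.2, 32.4 and 37.5 FPKM in TAX libraries. Control 3 alone was high, and without it the log2 fold change of NDUFB1 was 0.028.

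The 4 genes of complex II, succinate dehydrogenase, all overlapped between groups. SDHC, which anchors the enzyme in the membrane, was the most abundant at 118.7 ± 2.18 FPKM in control and 122.4 ± 3.14 FPKM in TAX cells. SDHD, the other anchor, had the largest log2 fold change at 0.16 with SE 0.10, and SDHB, the iron-sulfur subunit, the lowest at -0.014 with SE 0.097. The value of SDHD was 0.086 without control 1, 0.095 without TAX 2 and 0.25 without control 2, and that of SDHB was 0.053 without control 1, 0.013 without TAX 1 and 0.030 without TAX 3.

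In complex III, 8 of the 10 tested nuclear genes had a positive log2 fold change, where 8537 of all 12359 tested genes did. The median was 0.067. This median was 0.11 without control 1, 0.10 without control 3 or TAX 3, 0.0091 with libraries centred on their median and 0.0038 with scaling to genes outside MT. CYC1, the cytochrome c1 that hands electrons to cytochrome c, measured 62.9, 64.5 and 56.8 FPKM in control and 67.5, 75.7 and 67.5 FPKM in TAX libraries. It did not overlap and had the largest value of the complex, 0.19 with SE 0.088 (limma adjusted p = 0.493). Without control 3 CYC1 had 0.14, below UQCRHL at 0.24. Without control 1 it had 0.210, just below UQCRC1 at 0.217, and with quantile normalization it had 0.11. UQCRC2, a core subunit of the matrix side, also lay higher in all TAX libraries, at 65.0 ± 3.81 FPKM in control and 69.4 ± 2.38 FPKM in TAX cells. UQCRH, the hinge subunit, was the most abundant nuclear gene at 118.3 ± 12.7 FPKM in control and 121.4 ± 11.7 FPKM in TAX cells, and UQCR11 was the lowest nuclear gene by fold change at -0.12 with SE 0.13, both with overlap. The value of UQCR11 was -0.0061 without control 3, -0.033 without TAX 3, -0.21 without TAX 2 and -0.23 without control 2.

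In complex IV, cytochrome c oxidase, 12 nuclear genes were tested, with 7 positive and 5 negative log2 fold changes and a median of 0.045. Positive values were found in 8537 of all 12359 tested genes. COX7B, a small membrane subunit encoded on the X chromosome, was the only nuclear member with every TAX library below every control library. It measured 23.5, 18.8 and 21.6 FPKM in control and 16.4, 17.6 and 16.3 FPKM in TAX libraries, a log2 fold change of -0.32 with SE 0.093 (limma unadjusted p = 0.00590, adjusted p = 0.257). COX8A, another small membrane subunit, measured 153.1, 147.0 and 134.9 FPKM in control and 155.9, 172.1 and 159.8 FPKM in TAX libraries, without overlap and with the largest value of the complex at 0.17 (SE 0.088). Without control 3 it was 0.11, and COX7A2 was largest at 0.23. The value of COX8A was 0.090 with quantile normalization and 0.10 with scaling to genes outside MT. COX6A1 was the most abundant nuclear gene at 191.6 ± 24.1 FPKM in control and 186.9 ± 10.6 FPKM in TAX cells, with overlap.

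Counted over the nuclear members, 13 of the 81 tested genes had all TAX libraries above all control libraries, or 16.0%, where 14.6% of all tested genes did. Without ATP5F1A, on account of which the family was selected, it was 12 of 80, or 15%. In the other direction COX7B alone made 1.23%, where 3.34% of all tested genes did. At an unadjusted p under 0.05, 6 nuclear members were higher, where 7.73% of all tested genes were, and 2 were lower, where 2.41% were. Without ATP5F1A, 5 (6.25%) were higher. At the adjusted threshold 1 was higher, ATP5F1A itself, and 0 were lower, where 0.162% of all tested genes were lower. Without ATP5F1A, 0 were higher, where 0.316% of all tested genes were. The median log2 fold change of the nuclear members was 0.030, beside 0.054 over all tested genes. The order of these medians turned without control 3, when they were 0.067 and 0.0058, and with no filter on low values, when they were 0.029 and 0.019. With quantile normalization, libraries centred on their median and scaling to genes outside MT, the nuclear median was -0.045, -0.028 and -0.032. It was -0.020 without TAX replicate 2. That library was the highest of the 6 for 37 of the 81 nuclear members. The medians of complexes I, II and IV were negative without TAX replicate 2, with quantile normalization, with libraries centred on their median and with scaling to genes outside MT. By complex, 3 of 37 genes in complex I, 0 of 4 in complex II, 2 of 10 in complex III, 1 of 12 in complex IV and 7 of 18 in complex V lay above all controls. Without ATP5F1A, complex V had 6 of 17.

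**Figure D2:**
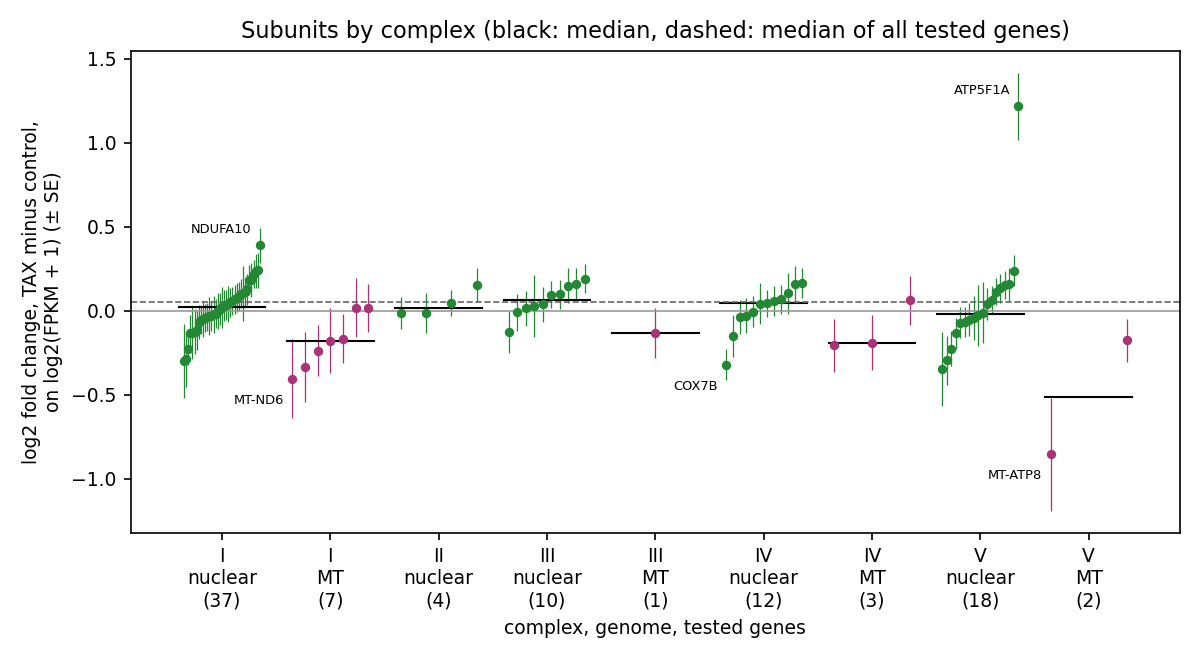
Log2 fold change (TAX minus control, log2(FPKM + 1) scale, bars are SE) of the 94 tested members by complex and genome, with the median of each group in black and that of all tested genes dashed. Nearly all nuclear genes lie close to 0, ATP5F1A stands at 1.22, and 10 of the 13 MT genes lie below 0, with MT-ATP8 lowest at -0.86.

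The MT members are the strongest transcripts among the subunits. In control cells they ranged from 816 FPKM for MT-ND6 to 6813 FPKM for MT-CO1, while the tested nuclear members ranged from 1.08 to 421 FPKM with a median of 45.3 FPKM. Of the 13 genes with the highest mean level, 10 were MT members. Together they held 15.8%, 11.2% and 14.2% of the summed FPKM in control libraries and 11.6%, 12.0% and 11.2% in TAX libraries. Controls 1 and 3 were thus above the TAX libraries while control 2 was below all of them, and the means of 13.7% ± 2.34 and 11.6% ± 0.393 (SD, n = 3) differed by less than the SD among controls. The 89 nuclear members held 1.37%, 1.37% and 1.59% in control and 1.41%, 1.52% and 1.42% in TAX libraries, with overlap.

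**Figure D3:**
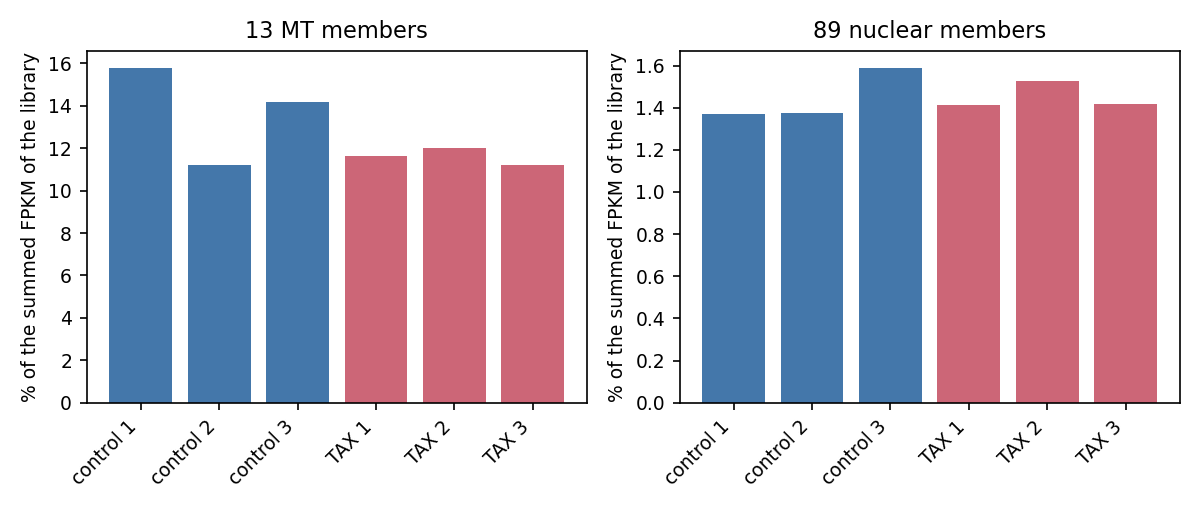
Share of the summed FPKM of each library, in percent, held by the 13 MT members (left) and the 89 nuclear members (right), with separate axes that both start at 0, blue bars for control and red bars for TAX. Control 1 has the largest MT share at 15.8% and control 3 the largest nuclear share at 1.59%.

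Of the 13 MT genes, 10 had a negative log2 fold change, where 3822 of all 12359 tested genes did, and the median was -0.18. The count of negative values was 4 with quantile normalization, 7 without control 1, 12 with libraries centred on their median and 13 with scaling to genes outside MT. Quantile normalization gives every library the same set of values, and 10 of the 13 highest genes were MT members. It thus takes away much of any shift shared by the MT genes, and cannot show whether there was one. No MT gene passed the adjusted threshold in limma, and 1 was lower at an unadjusted p under 0.05, where 2.41% of all tested genes were. That gene was MT-ATP8, a small membrane subunit of ATP synthase, at 5179, 2393 and 6258 FPKM in control and 3541, 1875 and 1971 FPKM in TAX libraries. Its groups overlapped because control 2 lay below TAX 1, and the log2 fold change was -0.86 with SE 0.34 (limma unadjusted p = 0.0284, adjusted p = 0.432). MT-ATP8 at chrM:8366-8572 shares 46 bases with MT-ATP6, so the split of reads between them is uncertain. MT-ATP6, which forms the proton channel of the same enzyme, measured 4897, 3811 and 4433 FPKM in control and 3849, 4011 and 3717 FPKM in TAX libraries, with overlap and a log2 fold change of -0.18 (SE 0.13), which was -0.092 without control 1, -0.27 without control 2 and 0.13 with quantile normalization.

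The MT genes of complex I form the proton-pumping membrane arm. MT-ND4 was the 1 MT gene of 13 with every TAX library below every control library, where 3.34% of all tested genes were. Without control 2 this count was 7 of 13, where 5.25% of all tested genes were, and without control 1 it was 1, where 4.33% of all tested genes were. In that last case 2 of 13 (15.4%) lay above the controls left, where 25.9% of all tested genes did. MT-ND4 measured 6669, 4894 and 4944 FPKM in control and 4851, 4868 and 4176 FPKM in TAX libraries. The gap between the nearest control and TAX libraries was narrow, and the log2 fold change was -0.24 with SE 0.15 (limma adjusted p = 0.608). It was -0.090 without control 1 and 0.044 with quantile normalization. MT-ND4L, which shares 7 bases with MT-ND4, measured 7383, 4341 and 4351 FPKM in control and 4559, 4694 and 4510 FPKM in TAX libraries, and control 1 alone stood high. MT-ND3 measured 892, 593 and 1219 FPKM in control and 660.1, 719 and 677 FPKM in TAX libraries. MT-ND6 measured 827, 564 and 1057 FPKM in control and 757, 642 and 438 FPKM in TAX libraries. Both overlapped, with log2 fold changes of -0.33 (SE 0.21) and -0.40 (SE 0.23). The value of MT-ND3 was -0.087 without control 3 and -0.61 without control 2. That of MT-ND6 was -0.19 without control 3, -0.18 without TAX 3 and -0.65 without control 2. MT-ND6 is the 1 MT member on the opposite strand, and whether the counting used strand is not given in the sources used here. MT-ND2 measured 2813 ± 578 FPKM in control and 2477 ± 138 FPKM in TAX cells. MT-ND1 and MT-ND5 had group means that nearly coincided, at 1721 ± 455 and 1716 ± 243 FPKM for MT-ND1 and at 1235 ± 219 and 1243 ± 142 FPKM for MT-ND5. Without control 1 their log2 fold changes were 0.22 and 0.15, and without control 2 they were -0.12 and -0.11.

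Complexes III and IV gave the same picture of overlap. MT-CYB, the cytochrome b that carries out the electron bifurcation of complex III, measured 3288, 2227 and 2424 FPKM in control and 2347, 2561 and 2249 FPKM in TAX libraries. MT-CO1, which holds the oxygen-reducing centre of complex IV, measured 7922, 6718 and 5798 FPKM in control and 6398, 7598 and 7217 FPKM in TAX libraries, with a log2 fold change of 0.062 (SE 0.15). With a library left out, that value ranged from -0.049 (without control 3) to 0.18 (without control 1), and with scaling to genes outside MT it was -0.0020. MT-CO2, which receives electrons from cytochrome c, measured 4631 ± 1131 FPKM in control and 3992 ± 264 FPKM in TAX cells. MT-CO3 measured 6027 ± 1238 FPKM in control and 5169 ± 477 FPKM in TAX cells. In all 13 MT genes the coefficient of variation was lower in TAX than in control libraries, with medians of 8.53% and 21.3%, and it was lower in 9060 of the 12359 tested genes.

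The MT values turned on single controls. Control 1 was the highest of the 6 libraries for 10 of the 13 MT genes and control 3 for the other 3. Without control 1 the median MT log2 fold change was -0.0092, and without control 2, the control with the lowest MT share, it was -0.30. Quantile normalization, which takes away much of any shift shared by the MT genes, gave 0.056. The mean log2(FPKM + 1) of the tested nuclear members minus that of the MT members was -6.30, -5.75 and -5.97 in control and -5.83, -5.74 and -5.72 in TAX libraries. Control 2 lay among the TAX libraries and the other controls below them, and the group means differed by 0.24, less than the control SD of 0.28.

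**Figure D4:**
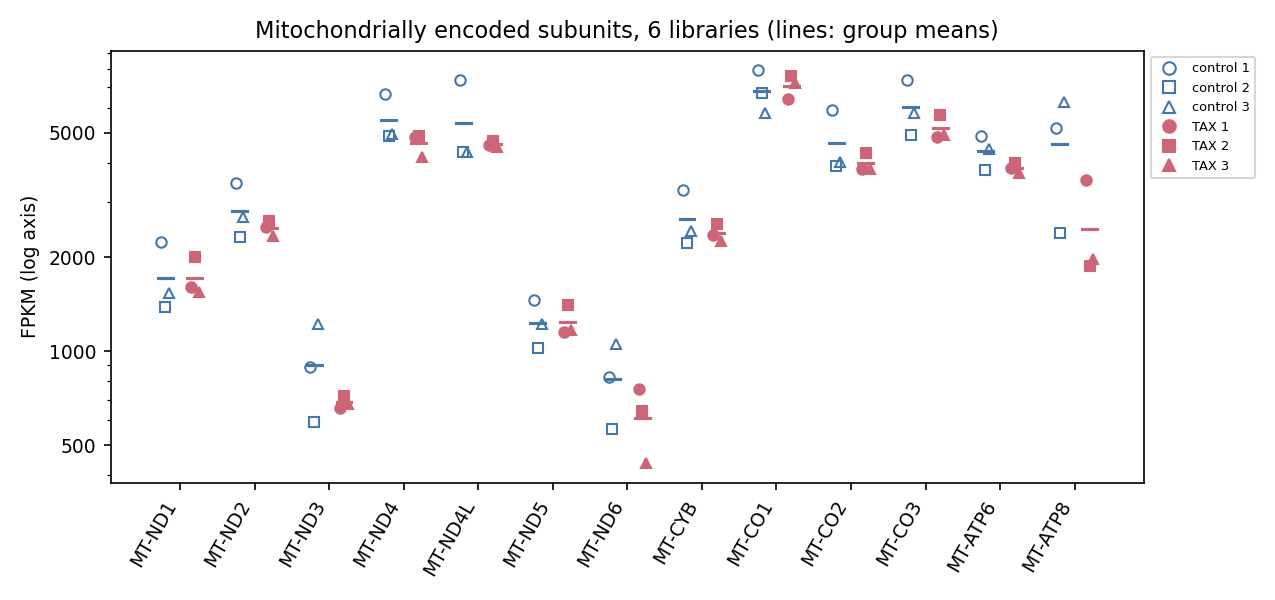
FPKM of the 13 MT genes on a log axis, with 1 point per library (open blue for control, filled red for TAX) and short lines at the group means. Control 1 (open circle) is the highest library for 10 genes, and MT-ATP8 spans 1875 to 6258 FPKM.

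Control 3 lay high in short members, a pattern that was examined after the values were seen. Coding length was taken from GENCODE 29, and the 81 tested nuclear members were split at their median of 408 bases. Among the 40 shorter members, such as ATP5ME (207 bases) and NDUFB1 (315 bases), control 3 lay above the mean of controls 1 and 2 in 33, with a median log2 difference of 0.23. Among the 41 longer members it lay above in 13, with a median of -0.042. ATP5F1A, with 1659 bases, was one of the 13, at 0.87. Across the 81 members Spearman's rho between coding length and this difference was -0.54, and -0.21 with transcript length. Over the 11349 tested genes with a coding length it was -0.28. The median over these genes was -0.0086 for those shorter than 408 bases and -0.16 for the longer ones.

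Control 3 enters the control mean as well, so its deviation by length carries over into TAX minus control with the opposite sign. The median of TAX minus control was -0.028 for the shorter and 0.079 for the longer nuclear members, and it was 0.071 and 0.058 without control 3. Across the 81 nuclear members, which share the same 6 libraries and are not independent, Spearman's rho between coding length and TAX minus control was 0.51, 0.083 without control 3 and 0.62 without control 1. With transcript length in place of coding length, the members gave 0.36, and 0.27 without control 3. Over the 11349 tested genes with a coding length rho was 0.022, and -0.10 without control 3. With 1 control left out, the share of nuclear members with all TAX libraries above the controls left was 19.8% without control 1, 22.2% without control 2 and 23.5% without control 3. The shares of all tested genes were 25.9%, 26.2% and 15.9%, so that the members lay above all genes in the last case and below them in the others.

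**Figure D5:**
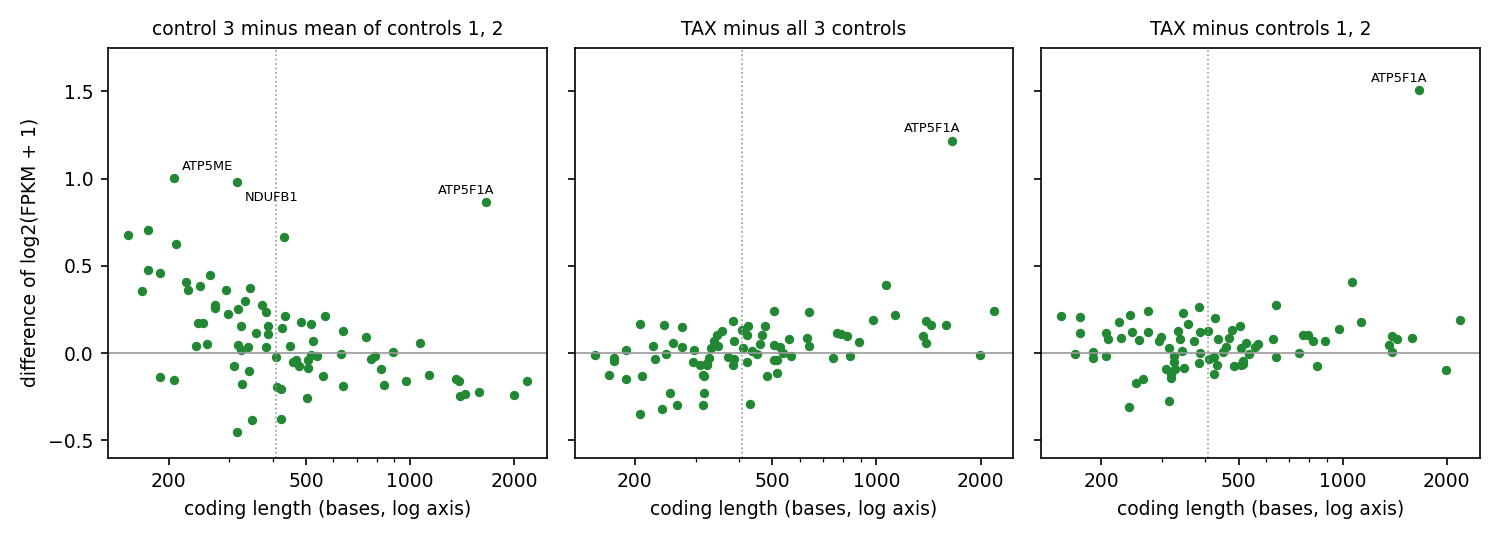
Differences of log2(FPKM + 1) against coding length (log axis, dotted line at the median of 408 bases) for the 81 tested nuclear members, 1 point per gene, for control 3 minus the other controls (left), TAX minus all controls (middle) and TAX minus controls 1 and 2 (right). Shorter members lie higher in control 3, and the slope with length in the middle panel is not seen in the right panel, where rho is 0.083.

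Genes that build or regulate the complexes were counted from lists made with earlier results known, and none passed the adjusted threshold in limma in any of them. At an unadjusted p under 0.05, 7.73% of all tested genes were higher and 2.41% lower. Of 48 assembly factors, 37 had a positive log2 fold change (median 0.094), with 4 higher (8.33%) and 2 lower at that p. SCO2, which delivers copper to complex IV, had the smallest p among them, at 2.63, 2.78 and 1.88 FPKM in control and 3.77, 3.37 and 3.29 FPKM in TAX libraries, without overlap (limma adjusted p = 0.234). Of 27 factors for mitochondrial DNA and RNA, 21 had a positive log2 fold change (median 0.057), with 0 higher and 1 lower at an unadjusted p under 0.05. The lower one was MTERF4, a factor of mitochondrial ribosome assembly, at 8.57 ± 1.21 FPKM in control and 7.00 ± 0.752 FPKM in TAX cells.

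The other lists also leaned to positive values, as did all tested genes, of which 8537 of 12359 were positive. Over all tested genes the mean log2(FPKM + 1) was 3.56, 3.57 and 3.43 in control and 3.57, 3.57 and 3.56 in TAX libraries. Of 78 mitochondrial ribosomal protein genes, 64 were positive (median 0.071), with 7 higher (8.97%) and 1 lower at an unadjusted p under 0.05. MRPL15 measured 29.4, 29.9 and 31.4 FPKM in control and 38.7, 38.4 and 38.6 FPKM in TAX libraries, without overlap (limma adjusted p = 0.103). Of the 12 tested regulators of OXPHOS transcription, 8 were positive (median 0.11) and 3 (25%) were higher at an unadjusted p under 0.05. ESRRA, a nuclear receptor that drives these genes, measured 14.7, 16.5 and 15.5 FPKM in control and 18.8, 19.6 and 18.6 FPKM in TAX libraries, without overlap (limma adjusted p = 0.257), while its coactivator PPARGC1A was listed at 0 in all libraries. Of 18 genes of the TCA cycle, which feeds the chain with NADH and succinate, 17 were positive (median 0.073) and 1 (5.56%), IDH3G, was higher at an unadjusted p under 0.05.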

How the data were processed

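RNA of 6 DU145 libraries was isolated with Trizol and sequenced by a company. For each library the authors deposited a list of genes with their values, read here as FPKM because the values are neither whole nor summed to a fixed total. The submitters' processing notes name HISAT2 2.2.0, StringTie 2.1.2 and GRCh38 without their roles, and the annotation is not given in the sources used here. No whole-read steps were found among 332 low genes, so depth is unknown and no counting interval is given.

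From these values log2(FPKM + 1) was fitted with limma 3.58.1 (R 4.3.3, trend, no covariate) for genes that reached 1 FPKM in 3 or more libraries, with Benjamini-Hochberg adjustment over all 12359 tested genes. The fit was tested on simulated data, the outcome of which is not given here. With 3 libraries per group, an exact permutation test of 1 value cannot give a p under 0.1, so none is given. The members and lists were chosen with earlier results of these data known. The places of the subunits within ATP synthase and the complex I core were assigned after the values were seen. Genes were named by rule: ATP5F1A, every MT gene, the most abundant and the highest and lowest by fold change in each complex, every member with an unadjusted p under 0.05, those beside the filter, the smallest p in each other list, and HAUS1. ATP5F1C, ATP5F1E, ATP5MC1, ATP5MC2, ATP5MC3, ATP5MD, ATP5MF, ATP5MG, ATP5MPL, ATP5PB, ATP5IF1, NDUFV1, UQCRC1, UQCRC2, COX7A2 and PPARGC1A were named after their values were seen. Alternatives were quantile normalization, median centring, scaling to genes outside MT, a pseudocount of 0.1, other filters, no trend, a replicate block and each library left out. One marker list is not reported here.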

Additional observations from a re-analysis of the deposited data

How the results depend on the processing

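The count of members higher at the adjusted threshold was 1 and became 0 with quantile normalization, with libraries centred on their median, with scaling to the sum of genes outside MT, with a filter at 0.1 FPKM and with no filter, and ranged from 0 to 1 with a library left out. The cause was not tested. The log2 fold change of ATP5F1A stayed between 1.03 and 1.51, and no member was lower in any setting. Quantile normalization turned the medians of the nuclear members (-0.045), the MT members (0.056) and the nuclear members of complexes I (-0.045), II (-0.059), III (-0.0047) and IV (-0.021) and gave 0.032 for the nuclear minus MT change. For the MT values this setting cannot decide, since it gives the highest genes of every library the same set of values. With a library left out, the nuclear median ranged from -0.020 to 0.067, the MT median from -0.30 to -0.0092 and the nuclear minus MT change from 0.096 to 0.37. Centring on the median and scaling outside MT gave nuclear medians of -0.028 and -0.032, negative also in complexes I, II and IV, while the medians of all tested genes were -0.0034 and -0.0012 in place of 0.054.

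Over all genes, 39 were higher and 20 lower. The counts were 47 and 48 with quantile normalization, 46 and 50 with centring, 44 and 50 with scaling outside MT, 25 and 12 with a filter at 0.1 FPKM, and 0 and 1 with no filter. With the replicate block they were 13 and 13, with 1 member higher. After each gene was centred on its group mean, libraries of the same number had correlations of -0.117, -0.333 and -0.171. Those of different numbers ranged from -0.167 to 0.292. With 3 libraries per group, such centred values cannot show whether libraries of the same number shared a culture or batch. Of 272 values of 34 named members in the 8 settings, 9 moved by more than 1 SE, and 12 of 204 did with a library left out.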
